A study of Arabidopsis thaliana with 14 samples.

Results

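Root tips treated with estradiol for 24 h were compared with root tips kept in control medium for 24 h, across all probe sets of an Affymetrix ATH1 array other than its control probe sets. The comparison takes 4 of the 14 arrays of the series, chosen by their labels as estradiol 24 h (2 arrays) and control 24 h (2 arrays). It covers 22746 probe sets, of which 15605 passed a filter on low signal and were tested. The series studied how the plant hormones auxin and cytokinin interact at the tip of the primary root of Arabidopsis thaliana. Every array comes from AtIPT8/pga22, a line of the Wassilewskija background, grown for 7 days on agar plates, and the sampled tissue was the last 5 mm of the primary root. Control seedlings received liquid medium alone for 24 h and the treated ones the same medium with 5 µM 17-beta-estradiol for 24 h. Other groups serve below for reference: control 12 h (3 arrays), estradiol 12 h at 5 µM (3 arrays) and 5 µM trans-zeatin for 24 h (2 arrays). The controls carry the same line as the treated seedlings, and all arrays are of this 1 line. The labels describe it as having a T-DNA knock-out in IPT8, while the name pga22 is known for a line in which estradiol switches IPT8 on. No probe set is named for IPT8, so its level is not given here. An unnamed probe set may still measure it. With no estradiol-treated plants of another line among the arrays, effects of the steroid and of the inducible gene cannot be told apart.

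IPT8 encodes an isopentenyltransferase, an enzyme of the first step of cytokinin synthesis in plants. Cytokinin is perceived by histidine kinase receptors and passed on by phosphotransfer proteins to type-B response regulators, which activate genes that include the type-A response regulators, themselves inhibitors of the pathway. In the root tip cytokinin is known to restrain the meristem and to oppose auxin, which starts lateral roots.

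Signals below are the deposited MAS5 intensities, on a linear scale and without a unit, and pairs of values are in the order replicate 1, replicate 2. A change is the difference of group means of log2(signal + 6.3), given with its standard error (SE), and a fold is 2 to the power of that change, which understates ratios between dim signals. Changes were called at an adjusted p under 0.05 in limma, over all 15605 tested. Nothing in the labels says that replicates came from separate cultures, so p-values measure the spread between samples, which may be technical. The replicates correlated at Spearman's rho of 0.963 (control) and 0.948 (estradiol), and arrays of different groups at 0.894 to 0.921. The median signal was 42.4 and 40.5 in control and 37.2 and 38.7 under estradiol. The actin 3'/5' ratio, a measure of how complete the labelled RNA is, was 6.24 and 6.44 in control against 4.85 and 4.36 under estradiol, and the GAPDH ratio 1.49 and 1.59 against 1.34 and 1.35, both apart between the groups. The ubiquitin ratio, 1.35 and 1.16 against 1.10 and 1.43, overlapped. Few root markers could be read: EXPA18, an expansin of root hair cells, had signals of 20.7 and 29.7 in control and 36.1 and 30.9 under estradiol, and PHV, a transcription factor of the stele, read 143, 134, 160 and 142. The 2 tested stele genes had a median change of -0.06 and the 2 of epidermis and hair 0.35. The 1 tested gene of cortex and endodermis changed by 0.11. None of these was called. No root cap gene of the marker list had a named probe set.

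After 24 h of estradiol, 595 of 15605 probe sets were called (3.81%), 356 of them higher (2.28%) and 239 lower (1.53%). These shares are the background for the counts of called members in the lists below. The filter kept probe sets that were dim in control but bright in other groups, and dropped those dim throughout. Where a list has members dim in control, its count is therefore a description only. Rises were larger than falls: 106 called probe sets were at least 4-fold higher and 35 at least 4-fold lower, and 17 against 4 reached 10-fold. The arrays of both groups did not overlap in any of the 595, but this was true of 53.1% of all tested probe sets (19.8% higher and 33.3% lower), so separation of 2 arrays from 2 is common here. The median change over all tested probe sets was -0.09. With each array centred on its median, 472 were called higher and 155 lower, so the split between rises and falls depends on the scaling. A single gene is named for 272 of the called probe sets (150 higher and 122 lower), several genes for 12 and none for 311. Without control replicate 1, control replicate 2 or estradiol replicate 2 the count fell to 204, 233 and 198, and with the actin ratio as a covariate to 197. That covariate ended the call of 43 of the 90 called genes and probe sets named below. Its part in the changes was not tested beyond this. Of the 90, 42 kept their calls under every alternative run for them.

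**Figure D1:**
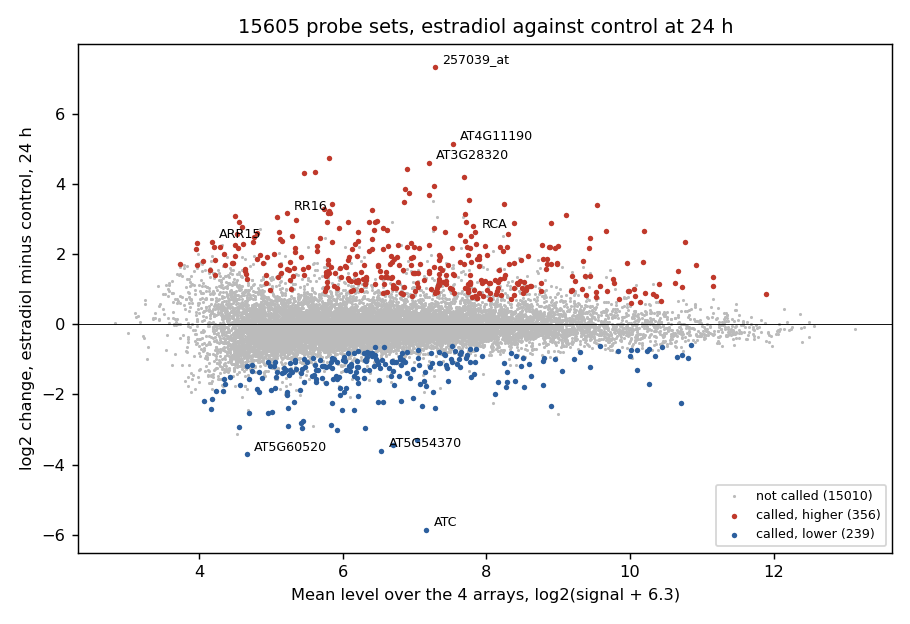
Change after 24 h of estradiol (y axis, log2) against mean level over the 4 arrays (x axis, log2 of the signal plus 6.3), 1 point per tested probe set. The 356 called higher (red) reach a change of 7.33 and the 239 called lower (blue) reach -5.85 at ATC.

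The plot of change by level shows where the leading genes lie. The uppermost point is 257039_at, a probe set with no gene named, which read 8.94 and 3.67 in control and 1775 and 2194 under estradiol. It was near the floor in both control arrays and bright in both estradiol arrays (change 7.33, SE 0.28, adjusted p = 4.9e-09). It is not known whether this probe set measures the inducible IPT8 itself or another gene. The other 4 unnamed probe sets with the largest changes were 259388_at (4.74), 257774_at (4.34), 265561_s_at (4.19) and 250207_at (3.94), all higher. The call of 265561_s_at ended without control replicate 1 (adjusted p = 0.071) and with the actin covariate (adjusted p = 0.11).

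Both type-A response regulators that could be tested rose, of 10 genes on that list. RR16, also called ARR16, read 7.17 and 5.25 in control and 114 and 96.7 under estradiol. Its arrays were near the floor without estradiol and moderately bright with it (8.92-fold, change 3.16, SE 0.27, adjusted p = 1.7e-05). ARR15 read 0.976 and 2.57 in control and 35.2 and 34 under estradiol, again with no overlap (5.09-fold, SE 0.42, adjusted p = 0.0056). The median change of this list was 2.75, beside -0.09 over all tested probe sets. Both named probe sets of the list passed the filter on low signal. In control arrays their summed signal was at most 20, under the cut-off, so only treated arrays let them pass. A type-A gene this dim would have been tested only if it was bright after treatment. The count of rises and the median are thus descriptions only. In the same list the change was 1.98 after 12 h of estradiol and 2.65 after 24 h of trans-zeatin, which shares the control arrays. The call of ARR15 ended without control replicate 1 (adjusted p = 0.057) or estradiol replicate 2 (adjusted p = 0.055). No receptor, phosphotransfer protein, type-B regulator or cytokinin response factor passed the filter with a gene name. The 2 tested genes of cytokinin removal, both glucosyltransferases, were not called (median change -0.13).

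The largest rise of a named gene was that of AT4G11190, which encodes a dirigent protein, a family that guides the coupling of phenolic radicals. It read 16 and 37.2 in control and 1241 and 972 under estradiol, 35.5-fold apart with no overlap (SE 0.50 on the log2 scale, adjusted p = 4.9e-05). AT3G28320, a gene without a known function, read 25.0 and 22.1 against 898 and 579 (24.4-fold, adjusted p = 6.3e-07). These were followed by AT5G26260, of a TRAF-like family (21.5-fold), AT2G19970, of the PR-1-like secreted proteins (20.0-fold), and AT1G31710, a copper amine oxidase (11.2-fold). AT1G31710 has another probe set, 246602_at, whose change of 1.95 was not called (adjusted p = 0.093), so that its probe sets disagree in the call. With a replicate block 246602_at was called (adjusted p = 0.024).

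**Figure D2:**
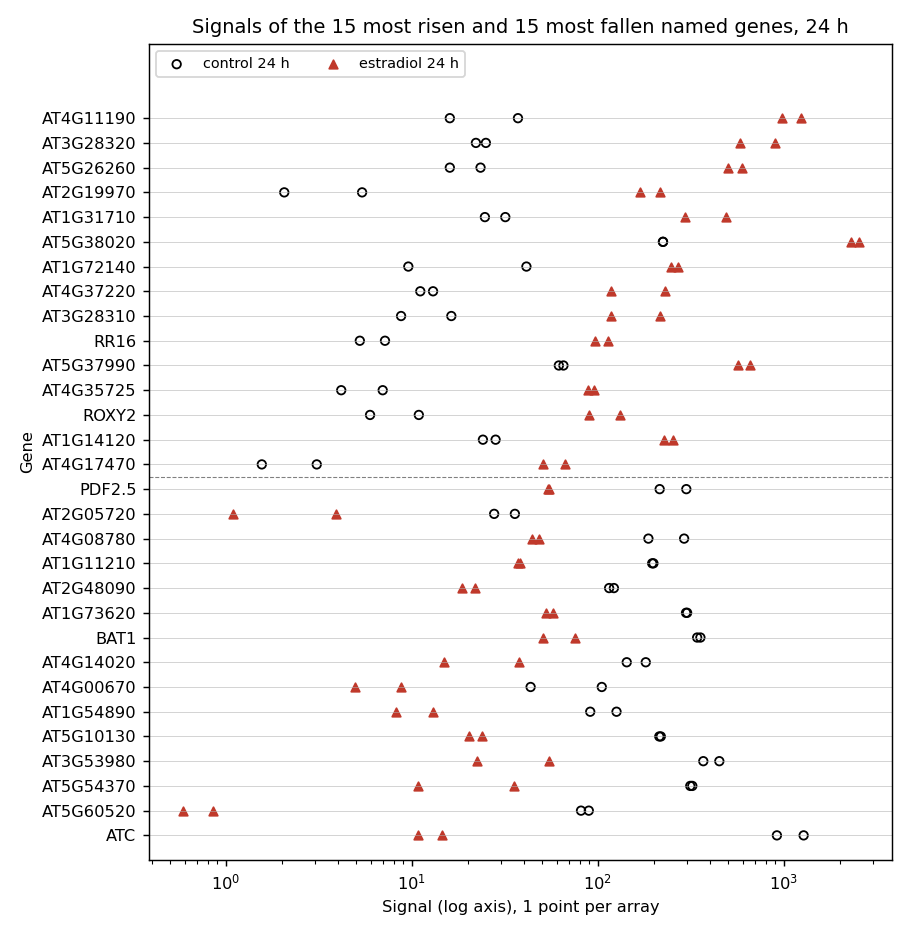
Signal per array (x axis, log scale) of the 15 named genes with the largest rise and the 15 with the largest fall (y axis), with control 24 h as open circles and estradiol 24 h as red triangles. Only genes whose groups lie apart were eligible. The plot runs from AT4G11190 at the top (972 and 1241 against 16 and 37.2) to ATC at the bottom (10.8 and 14.5 against 918 and 1278).

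The plot of signals per array also holds ROXY2, a glutaredoxin of the plant-specific CC type, which read 10.9 and 5.96 in control and 131 and 89.3 under estradiol. It stood 7.89-fold higher in both treated arrays (adjusted p = 0.0004) and was the 1 called of 8 tested glutaredoxins and thioredoxins (median -0.11). AT4G37220, of a cold-acclimation membrane protein family, rose 9.34-fold and AT3G28310, the neighbour of AT3G28320, rose 9.03-fold. AT4G35725 and AT4G17470 rose 8.31-fold and 7.48-fold from control signals under 7. Of the 15 risen genes, AT1G72140 lost its call without control replicate 2 (adjusted p = 0.11) or estradiol replicate 2 (adjusted p = 0.067), and AT1G14120, described with the auxin genes, without control replicate 2 (adjusted p = 0.061). The other 13 kept theirs without any 1 array, and with the actin covariate the same 2 genes lost theirs (0.052 and 0.11).

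Genes of several enzyme and transporter families rose, in lists that were added after values had been seen. Of 4 tested SABATH methyltransferases, enzymes that methylate carboxyl groups of small molecules such as salicylate, jasmonate or nicotinate, 3 rose and none fell. Over all tested probe sets 2.28% were called higher. The list has 16 probe sets, and those that failed the filter on low signal are not in the count. A gene as dim in the 24 h controls as NAMT1, below, passes only if other arrays are bright. The count of 3 in 4 may thus be partly set by the filter and is a description only. AT5G38020 read 224 in both control arrays and 2295 and 2526 under estradiol (10.5-fold, adjusted p = 0.00012). AT5G37990 rose 8.84-fold (adjusted p = 0.00041), and NAMT1, which methylates nicotinate, read 0.816 and 12.2 against 85.2 and 39 (5.61-fold, adjusted p = 0.0076). The call of NAMT1 ended without control replicate 1 (adjusted p = 0.099) or estradiol replicate 1 (adjusted p = 0.075), and with the actin covariate (adjusted p = 0.053).

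Of 9 tested dirigent genes 2 rose, AT4G11190 and AT4G11210, beside 2.28% called higher over all probe sets. The list has 15 probe sets, and those that failed the filter are not in this count. AT4G11210 read 3.32 and 2.70 in control and 72.7 and 44.2 under estradiol (6.79-fold, adjusted p = 0.0032). Its adjusted p was 0.068 with the actin ratio as a covariate.

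Among 21 tested NPF genes, the family of nitrate and peptide transporters, 4 rose and none fell (2.28% higher and 1.53% lower over all probe sets). The list median was 0.70. It has 34 probe sets, and those that failed the filter are not in these values. AT1G72140 read 41.3 and 9.57 in control and 247 and 270 under estradiol (9.62-fold, adjusted p = 0.007). AT3G45700 rose 6.23-fold (adjusted p = 0.024), GTR2, a glucosinolate transporter, 2.07-fold (adjusted p = 0.029) and AT2G26690 1.90-fold (adjusted p = 0.017). GTR2 and AT2G26690 are also the 2 called of 8 tested genes of the earlier list of nitrate and ammonium transport (median 0.94). Their arrays did not overlap, but the calls were not stable. Those of GTR2 and AT2G26690 ended without any 1 of the 4 arrays (adjusted p from 0.056 to 0.17 and from 0.051 to 0.15), and that of AT3G45700 without control replicate 1 (0.22), estradiol replicate 1 (0.13) or estradiol replicate 2 (0.082). The actin covariate ended those of AT1G72140 (0.052), AT3G45700 (0.24) and GTR2 (0.27).

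Cell wall genes moved in both directions. Expansins loosen the wall as cells grow. Of 15 tested 3 rose and 1 fell (median 0.34), beside 2.28% higher and 1.53% lower over all probe sets. EXPB3 read 49.7 and 48.8 in control and 273 and 263 under estradiol (4.94-fold, adjusted p = 0.0011), with pairs that were nearly equal within each group. EXPA4 read 216 and 285 against 827 and 825 (3.27-fold, adjusted p = 0.007). EXPA15 read 69.7 and 119 against 297 and 327 (3.25-fold, adjusted p = 0.034). EXLB1, an expansin-like gene, was the one that fell, from 37.7 and 57.2 to 10.4 and 6.81 (change -1.84, SE 0.37, adjusted p = 0.013). XTH20, an enzyme that cuts and rejoins xyloglucan, rose 2.85-fold, from 79.2 and 82.4 to 247 and 237, and was the 1 called of 8 tested (adjusted p = 0.0054, list median 0.31). Of these genes EXPB3 kept its call without any 1 array. The calls of EXPA4 ended without control replicate 1 (0.092) or estradiol replicate 2 (0.061), of XTH20 without control replicate 1 (0.057), of EXLB1 without control replicate 2 (0.15) or estradiol replicate 2 (0.12), and of EXPA15 without any 1 array (0.064 to 0.27). With the actin covariate EXPA4, EXPA15, XTH20 and EXLB1 were not called (0.11, 0.31, 0.068 and 0.14).

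Among single risen genes of other lists, UGT74B1, a glucosyltransferase of glucosinolate synthesis, read 260 and 265 in control and 506 and 531 under estradiol (1.95-fold, adjusted p = 0.026). It was the 1 called of 34 tested UDP-glycosyltransferases, whose median change was -0.05, beside 3.81% called over all probe sets. CYP84A4, a cytochrome P450, read 33.3 and 39.6 against 78.1 and 83.1 (2.04-fold, adjusted p = 0.031), 1 of 8 tested in its family. Both pairs lay apart, but without any 1 array the adjusted p was 0.085 to 0.17 for UGT74B1 and 0.093 to 0.21 for CYP84A4, and with the actin covariate 0.23 and 0.18.

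The deepest fall was that of ATC, a relative of the floral repressor TFL1. It read 1278 and 918 in control and 10.8 and 14.5 under estradiol, so a bright signal came down to near the floor in both treated arrays (57.8-fold lower, change -5.85, SE 0.57, adjusted p = 4.9e-05). After 12 h of estradiol its change was -4.72 and after 24 h of trans-zeatin -6.21.

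The deepest falls after ATC included 3 genes related to late embryogenesis abundant (LEA) proteins, which were noticed after their values were seen. The list of abscisic acid and LEA genes, which does not hold them, had 1 called of 12 tested, COR27, with a median of -0.17. AT5G60520 read 89.4 and 81.2 in control and 0.849 and 0.588 under estradiol (13.0-fold lower, adjusted p = 0.00052). AT5G54370 read 314 and 322 against 35.2 and 10.8 (12.2-fold lower, adjusted p = 0.00017), and AT1G54890 126 and 91.0 against 13.0 and 8.24 (6.76-fold lower, adjusted p = 0.00025). In each the estradiol arrays were far below both controls. AT3G53980, of the lipid transfer and seed albumin family, fell 9.94-fold, and AT5G10130, of the Ole e 1 pollen allergen family, fell 7.82-fold, from 218 and 214 to 23.9 and 20.4. The call of AT3G53980 ended without control replicate 1 (adjusted p = 0.057), control replicate 2 (adjusted p = 0.081) or estradiol replicate 2 (adjusted p = 0.11), and with the actin covariate (adjusted p = 0.13).

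BAT1, an acyltransferase that acts on brassinosteroids, read 356 and 342 in control and 51.0 and 75.5 under estradiol (5.19-fold lower, adjusted p = 0.00017). AT1G73620, of the thaumatin family, fell 4.99-fold (adjusted p = 0.00052) and PDF2.5, a defensin-like peptide, 4.28-fold, from 215 and 299 to 54.9 and 54.0 (adjusted p = 0.00078). All 3 kept their calls without any 1 array. AT4G00670, of the remorin family, AT4G14020, AT2G48090 and AT2G05720 fell between 4.35-fold and 5.72-fold. Their calls ended in at least 2 of the fits without 1 array, at adjusted p from 0.059 to 0.2, with control replicate 1 and estradiol replicate 2 among those left out in all 4, and with the actin covariate (0.098 to 0.32).

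Genes that start lateral roots fell. PUCHI, a transcription factor that patterns the young primordium, read 76.3 and 67.8 in control and 21.3 and 16 under estradiol (3.15-fold lower, change -1.65, SE 0.32, adjusted p = 0.01). LBD16, which acts in the founder cells downstream of auxin, read 105 and 130 against 46.3 and 41.0 (2.47-fold lower, SE 0.26, adjusted p = 0.012). These were the 2 tested members of a list of 11, with a median of -1.48. PUCHI lost its call without control replicate 1 (0.096), control replicate 2 (0.061) or estradiol replicate 2 (0.1), LBD16 without control replicate 2 (0.12) or estradiol replicate 2 (0.1), and both with the actin ratio as a covariate (0.16 and 0.18).

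Of the auxin lists, no gene of synthesis (2 tested), of the Aux/IAA repressors (3 tested) or of conjugation (3 tested) was called. WES1, or GH3.5, an enzyme that conjugates auxin with amino acids, read 203 and 249 in control and 120 and 129 under estradiol, a change of -0.82 that missed the threshold (adjusted p = 0.072). It was called when the fit took only the 4 arrays (adjusted p = 0.037). YUC6, an enzyme of auxin synthesis, had a change of 1.37 with an SE of 0.60 (adjusted p = 0.24), and IAA30 one of 0.73 (adjusted p = 0.19). AT1G14120, which encodes DAO2, a dioxygenase related to the auxin oxidase DAO1, rose 7.63-fold, from 28.2 and 24.1 to 255 and 228 (adjusted p = 0.0059). AT1G14130, which encodes DAO1, read 263 and 291 against 231 and 198 and was not called (change -0.36, adjusted p = 0.39). DAO2 and DAO1 were set together after values were seen. The adjusted p of AT1G14120 was 0.061 without control replicate 2 and 0.11 with the actin covariate.

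A gene of DNA replication fell. PRL, the helicase subunit MCM7, read 177 and 179 in control and 86.9 and 91.1 under estradiol (1.94-fold lower, change -0.95, SE 0.19, adjusted p = 0.011) and was the 1 called of 2 tested on the replication list. Neither the 5 tested mitosis genes (median -0.42) nor the 5 tested histone genes (median -0.47) gave a call. AUR1, an Aurora kinase of the mitotic spindle, read 109 and 138 against 63.8 and 80.5 (change -0.73, adjusted p = 0.1), and HTB2, a histone H2B, 136 and 105 against 56.4 and 71.2 (change -0.86, adjusted p = 0.083). Groups did not overlap in either. HTB2 was called when control 12 h replicate 3 and estradiol 12 h replicate 1 were left out of the fit (adjusted p = 0.048). In a whole root tip, fewer dividing cells and less RNA per cell cannot be told apart.

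Further chromosome genes were picked after their values had been seen. ICU2, the catalytic subunit of DNA polymerase alpha, fell 2.28-fold, TOPII, a topoisomerase, 2.81-fold, and the chromosome-binding proteins 3xHMG-box1 and 3xHMG-box2 fell 2.55-fold and 3.09-fold. 3xHMG-box2 read 214 and 272 in control and 73.5 and 74.0 under estradiol (adjusted p = 0.0051). Calls in this group were fragile: without any 1 of the 4 arrays the adjusted p was 0.071 to 0.24 for ICU2, 0.088 to 0.24 for TOPII and 0.059 to 0.081 for PRL. 3xHMG-box1 lost its call without control replicate 2 (0.24), estradiol replicate 1 (0.088) or estradiol replicate 2 (0.14), and 3xHMG-box2 without control replicate 2 (0.07). With the actin covariate none of the 5, PRL included, was called (0.089 to 0.34). ICU2 and TOPII were also not called with arrays centred on the median (0.076 and 0.055) or without the filter (0.084 and 0.072).

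Class III peroxidases, secreted enzymes that form or consume hydrogen peroxide at the wall, changed in both directions. In this list, which was added after values were seen, 43 were tested, 6 fell and 3 rose, beside 1.53% lower and 2.28% higher over all probe sets, and the median was -0.12. The numbers of falls and rises were not tested against each other. AT4G33420 read 805 and 872 in control and 368 and 293 under estradiol (2.52-fold lower, adjusted p = 0.00035). Prx37 read 521 and 542 against 260 and 206 (2.26-fold lower, adjusted p = 0.0024). Both kept their calls without any 1 array, and both fell at 12 h as well (changes of -1.45 and -1.17), but with the actin covariate Prx37 was not called (-0.94, adjusted p = 0.059). AT4G08780 (-2.19), AT3G01190 (-1.69), AT4G30170 (-1.63) and AT5G24070 (-1.54) also fell, and AT5G14130 (1.93), AT5G64110 (1.75) and AT2G34060 (1.32) rose. Each of these 7 lost its call without estradiol replicate 2 (adjusted p from 0.071 to 0.21), and AT3G01190 and AT5G14130 without any 1 array (0.071 to 0.21). Calls also ended without control replicate 1 for AT4G30170, AT5G24070 and AT5G64110 (0.13, 0.17 and 0.058), without control replicate 2 for AT4G08780, AT4G30170, AT5G64110 and AT2G34060 (0.11, 0.07, 0.17 and 0.19), and without estradiol replicate 1 for AT2G34060 (0.076). The actin covariate ended the calls of these 7 genes other than AT3G01190 (0.079 to 0.23). UPB1, a transcription factor known to repress peroxidase genes in the root, read 76.7 and 85.7 in control and 204 and 144 under estradiol and was not called (change 1.02, adjusted p = 0.098).

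Genes of photosynthesis stood higher in the estradiol arrays, in different measure in each. Of 28 tested genes of a list of green tissue markers 4 rose and none fell, with a median of 1.19. Over all probe sets 2.28% were called higher and 1.53% lower. RCA, the activase of the carbon-fixing enzyme Rubisco, read 64.1 and 113 in control and 310 and 1025 under estradiol (6.22-fold, change 2.64, SE 0.57, adjusted p = 0.019). PSAN, a photosystem I subunit, read 32.7 and 35.9 against 92.9 and 317 (4.41-fold, adjusted p = 0.016). In both genes estradiol replicate 2 was well above estradiol replicate 1, and both were above the controls. The photosystem II subunits psbF and psbL, encoded in the chloroplast, rose 2.71-fold and 2.23-fold. HPR, a photorespiratory reductase that is no member of the list, read 15 and 16.7 against 49.6 and 254 (5.46-fold, adjusted p = 0.033).

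The summed signal of the 28 genes was 6459 and 6717 in control, 9227 and 15033 under estradiol and 5359 and 6562 under trans-zeatin at 24 h. Of these, the 9 nuclear genes, set apart after values were seen, summed to 541 and 657 in control and to 1157 and 3668 under estradiol. Both estradiol sums lay above those of the other 24 h arrays. The median change of all 28 genes was 0.12 under trans-zeatin at 24 h and 0.01 after 12 h of estradiol. Under trans-zeatin at 24 h it was 0.5 for the 9 nuclear genes and -0.26 for the 19 chloroplast genes. The calls of RCA, PSAN, psbF, psbL and HPR all ended without estradiol replicate 2 (adjusted p = 0.22, 0.18, 0.25, 0.078 and 0.3), and without control replicate 1 (0.18, 0.12, 0.24, 0.19 and 0.18). Without control replicate 2 those of RCA, PSAN, psbF and HPR ended (0.058 to 0.15), and without estradiol replicate 1 that of psbL (0.11). With the actin covariate none of the 5 was called (0.091 to 0.15). HPR was also not called with a pseudocount of 32 (0.056), without the filter (0.062), without the intensity trend (0.055) or with the replicate block (0.062). Whether the amount of green tissue in the samples had a part in this was not tested.

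**Figure D3:**
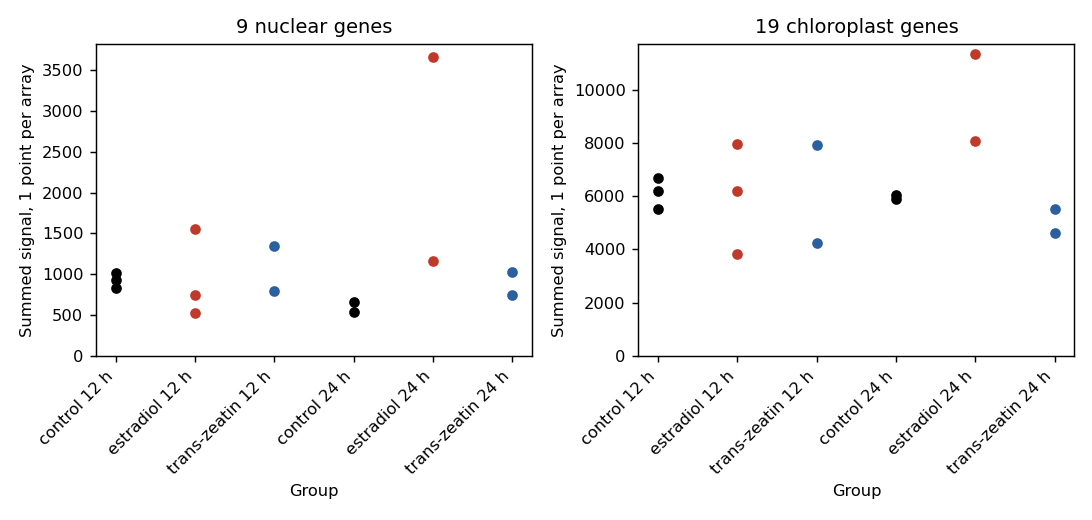
Summed signal (y axis) of the tested photosynthesis genes encoded in the nucleus (left, 9 genes) and in the chloroplast (right, 19 genes), 1 point per array in each of the 6 groups (x axis). Both estradiol 24 h arrays lie above both control 24 h arrays, and replicate 2, at 3668 on the left and 11365 on the right, is the highest of all arrays.

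The plot of summed photosynthesis signals shows that the estradiol 12 h arrays also spread, from 523 to 1549 over the nuclear genes, around the control 12 h arrays, which lay between 830 and 1008.

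Some called genes were next to each other on the chromosome. Of 2870 pairs of neighbouring genes that were both tested, 12 pairs (23 genes) were both called in the same direction. Over all tested probe sets 2.28% were called higher and 1.53% lower. The number of such pairs to be found without any link between neighbours was not worked out, so the count is a description only. The dirigent genes AT4G11190 and AT4G11210 are such a pair, as are AT3G28310 and AT3G28320. AT4G23670 and AT4G23680, which encode proteins related to the birch allergen Bet v 1, read 160 and 179 and 97.1 and 139 in control and 1348 and 1224 and 816 and 997 under estradiol. They rose by nearly the same ratio, 7.36-fold and 7.40-fold. AT3G57010 and AT3G57020, which encode strictosidine synthase-like proteins, rose 3.64-fold and 4.90-fold, and a run of 3 genes, AT3G26450, AT3G26460 and AT3G26470, rose 4.56-fold, 3.44-fold and 2.32-fold. AT5G38020 and its neighbour AT5G38030, a MATE-type efflux carrier, rose 10.5-fold and 2.63-fold. Among falling pairs were Prx37 with AT4G08780, AT5G60520 with AT5G60530 and AT1G73620 with AT1G73630. The remaining pairs were AT5G14120 with AT5G14130 and psbL with psbF. Adjacent members of 1 family have similar sequences, so the separate levels of such pairs are uncertain. AT4G23680 lost its call without control replicate 1 (0.07) or estradiol replicate 2 (0.06), AT3G26460 without control replicate 1 (0.16), control replicate 2 (0.13) or estradiol replicate 1 (0.17), and AT5G60530, AT1G73630 and AT5G14120 without control replicate 1, control replicate 2 or estradiol replicate 2 (0.056 to 0.29). The actin covariate ended the calls of AT4G23680 (0.1), AT3G26460 (0.22), AT1G73630 (0.19) and AT5G14120 (0.063).

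The changes at 24 h were set beside those after 12 h of estradiol. The 24 h and 12 h changes themselves use no array in common. Both tests share a spread estimated over all 14 arrays, so the calls at 24 h and 12 h are not independent of each other. The 12 h comparison called 762 (4.88%), with 368 up and 394 down. Of the 356 called higher at 24 h, 162 were called higher at 12 h, which is 45.5% of the list at 24 h and 44% of that at 12 h, where 2.36% of all probe sets were called higher. Of the 239 called lower at 24 h, 81 were called lower at 12 h (33.9% of the list at 24 h, 20.6% of that at 12 h, background 2.52%). No probe set was called in opposite directions. The probe sets called higher at 24 h had a median change of 1.57 at 24 h and 0.77 at 12 h, and those called lower -1.24 and -0.60. Since they were chosen for their change at 24 h, the smaller median at 12 h is a description only.

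**Figure D4:**
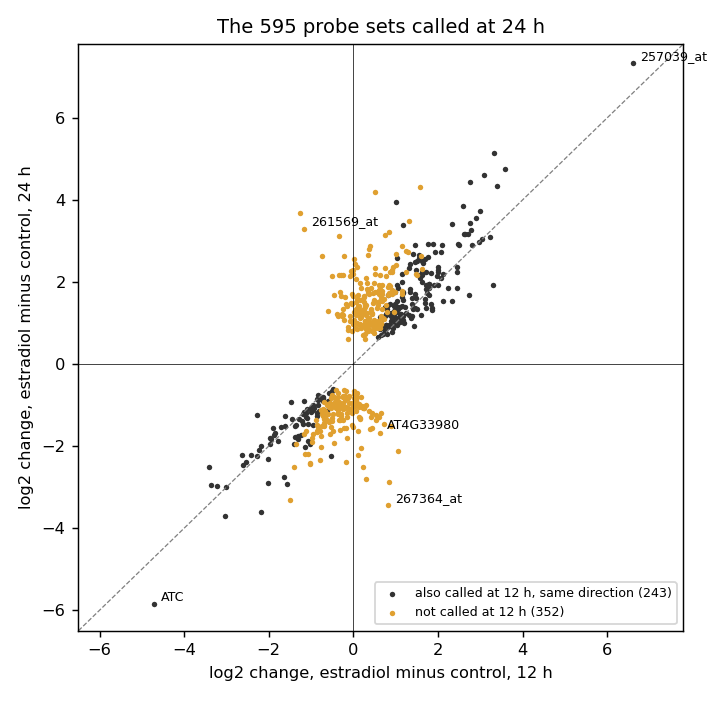
Change after 24 h of estradiol (y axis, log2) against change after 12 h (x axis, log2) for the 595 probe sets called at 24 h, with those also called at 12 h in the same direction in dark grey (243) and the others in orange (352). The dashed line marks equal change, and ATC, at -5.85 and -4.72, is the lowest point.

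In the plot by time ATC, at -5.85 and -4.72, and 257039_at, at 7.33 and 6.61, are the extremes at 24 h, and the difference between times was not called for either (adjusted p = 0.73 and 0.63). ROXY2 changed by 2.98 at both times, and BAT1 by -2.37 at 24 h and -2.53 at 12 h, each called at both. Others were called at 24 h and had small values at 12 h: XTH20 changed by 1.51 and 0.26, AT4G23680 by 2.89 and 0.39, and AT5G37990 by 3.14 and 0.74. The difference between times was not called for any of these 3 (adjusted p = 0.3, 0.26 and 0.15).

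A direct test of the difference between the estradiol effects at 24 h and 12 h called 12 of 15605 probe sets (0.0769%), 4 higher (0.0256%) and 8 lower (0.0513%) at 24 h, and 1323 at an unadjusted p under 0.05. Only AT4G33980 and AT1G11210 of these have a single gene named. AT4G33980, which encodes COR28, a cold-responsive regulator of the circadian clock, read 124 and 67.6 in control at 24 h and 28.1 and 20.9 under estradiol. At 12 h it read 43.7, 57.7 and 53.2 in control and 79.2, 80.2 and 88.7 under estradiol. The estradiol arrays were thus below control at 24 h and above it at 12 h (changes of -1.68 and 0.63, difference -2.31, SE 0.32, adjusted p = 0.011). The fall at 24 h was called, but the rise at 12 h was not. Its relative COR27 had changes of -1.50 (called, adjusted p = 0.017) and 0.89 (not called), and the difference of -2.39 was not called (adjusted p = 0.054). GI, a clock gene, read 434 and 420 against 288 and 197 at 24 h and was not called (change -0.82, adjusted p = 0.22). When the fit took only the 4 arrays its adjusted p was 0.048.

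AT1G11210, a gene without a known function, read 196 and 199 in control and 38.3 and 37.3 under estradiol at 24 h. At 12 h it read 121, 116 and 126 against 162, 128 and 109, with overlapping groups (difference of effects -2.32, SE 0.33, adjusted p = 0.012). The unnamed 267364_at had the largest such difference among the falls, -4.26, with 418 and 273 against 31.9 and 19.9 at 24 h and higher estradiol arrays at 12 h. Among the rises 261569_at differed most (4.46), reading 19.6 and 5.04 against 155 and 168 at 24 h. In 250207_at the control signal itself differed between times, from 910 to 2152 at 12 h and 35.5 and 30.8 at 24 h. The calls of the difference ended for AT4G33980 without control 24 h replicate 1 (0.073) or estradiol 24 h replicate 2 (0.072), for AT1G11210 without any 1 of the 4 arrays at 24 h (0.051 to 0.11), and for COR27 the call at 24 h ended without control replicate 1 (0.075), control replicate 2 (0.14) or estradiol replicate 2 (0.13), and with the actin covariate (0.17). Of the unnamed probe sets, 267364_at, 261569_at and 263548_at kept the call of the difference under all 21 alternatives, while 252475_s_at lost it in 17, 267002_s_at in 15, 251962_at in 13, 261613_at in 8, 250207_at in 5, 257985_at in 3 and 259990_s_at in 1.

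**Figure D5:**
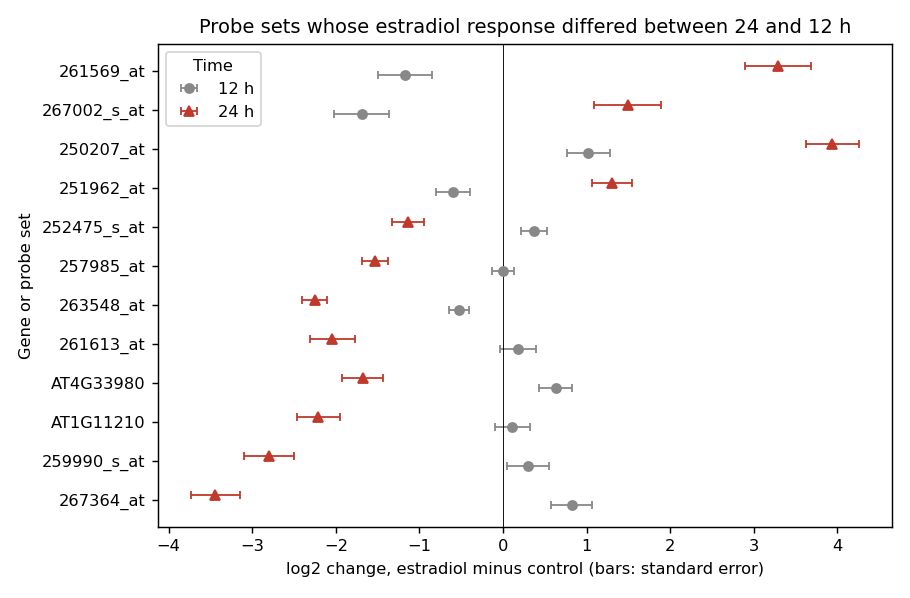
Change under estradiol (x axis, log2, bars are standard errors of the fit) at 12 h (grey circles) and at 24 h (red triangles) for the 12 probe sets in which the effects differed (y axis). The 8 lowest have their 24 h value left of their 12 h value, down to -3.44 at 267364_at, and the 4 uppermost have it to the right.

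The plot of both effects also shows 267002_s_at, whose change at 24 h, 1.49, was not called (adjusted p = 0.057), against -1.69 at 12 h.

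Estradiol and trans-zeatin at 24 h were compared directly, without the controls. This called 7 of 15605 probe sets (0.0449%), 2 higher (0.0128%) and 5 lower (0.032%) under estradiol, and 892 at an unadjusted p under 0.05. The probe set 257039_at read 1775 and 2194 under estradiol and 9.69 and 17.5 under trans-zeatin (difference 6.66, SE 0.28, adjusted p = 1.8e-08), and, as above, it may be IPT8 or another gene. AT5G59845, of the gibberellin-regulated GASA peptide family, read 91.4 and 159 under estradiol, 27.2 and 22.1 under trans-zeatin and 36.6 and 23.8 in control (difference 2.04, SE 0.28, adjusted p = 0.021). In both, the trans-zeatin arrays were close to control and the estradiol arrays above. AT4G33980 read 83.1 and 90.1 under trans-zeatin, and AT1G11210 131 and 123, both above their estradiol arrays (differences of -1.60 each, SE 0.25 and 0.26, adjusted p = 0.039 and 0.049). The unnamed probe sets lower under estradiol were 263548_at (-1.62), 259990_s_at (-2.09) and 262908_at (-1.27). Under 15 alternatives 263548_at and 257039_at kept their calls throughout, while 262908_at, AT4G33980 and AT1G11210 lost theirs in 11, 259990_s_at in 9 and AT5G59845 in 6. Without estradiol replicate 2 the adjusted p was 0.47 for AT5G59845 and 0.7 for AT4G33980 and AT1G11210, and without trans-zeatin replicate 1 or replicate 2 it was 0.15 to 0.5 for these 3. Without estradiol replicate 1 it was 0.077 for AT4G33980 and 0.12 for AT1G11210.

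For the leading genes the values against control at 24 h were close under both agents, in comparisons that share the control arrays. RR16 changed by 3.16 under estradiol and 2.89 under trans-zeatin, a difference of 0.27 with an SE of 0.27. AT4G11190 changed by 5.15 and 5.70, AT5G38020 by 3.39 and 3.45 and AT5G10130 by -2.97 and -2.66. A difference that is not called does not show that the agents act alike.

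Of 50 gene lists, 38 had a tested member and 12 of these a called one. The 26 with none called include sugar transport (10 tested, median 0.36), cellulose and lignin (10 tested, 0.10), glutathione transferases (12 tested, 0.16), the WRKY transcription factors (6 tested, -0.16) and the heat shock proteins (3 tested, -0.43). All of these medians compare with -0.09 over the tested probe sets.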

How the data were processed

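RNA of root tips was hybridised to Affymetrix ATH1 arrays, 1 sample per array. The deposited table gives linear signal intensity. The authors used MAS5 and GCOS, per the submitters' processing notes, which name no version. Each array has a trimmed mean of 100 (2% of values removed at each end), and it was not normalized further. The table has 22810 probe sets, of which 64 are controls. Reference files name 1 gene for 13513 probe sets, several for 503 and none for 8730. TAIR10.1 served for names and gene order only, since the labels state no build. The number of arrays limits the precision.

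Values were analysed as log2(signal + 6.3), the 20th percentile of all values as pseudocount. Probe sets above 23, the 40th percentile, in at least 2 arrays were tested. Using limma 3.58.1 in R 4.3.3, group means were fitted over all 14 arrays of 6 groups, with variances moderated by an intensity trend (residual df 8, prior df 5.96). Tests were two-sided, with Benjamini-Hochberg adjustment over all 15605 probe sets, and every adjusted p above is from limma. An exact permutation test of 2 against 2 arrays was not used, as it cannot reach the threshold.

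Named genes are the 15 strongest rises and 15 strongest falls among called, non-overlapping probe sets of 1 gene, up to 5 in each direction for the other tests, called members and some further members of the lists, called neighbours, the 5 unnamed called probe sets with the largest change, and IPT8. HPR, 3xHMG-box1, 3xHMG-box2, ICU2, TOPII and probe sets outside this rule were picked after their values were seen. The comparison and the lists were chosen with earlier results of these data known. Some uncalled list members whose direction turned with the setting are not named. From the lists, 23 matches of other genes by name were left out.

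Residuals of same-numbered control and estradiol arrays at 24 h correlated at 0.033, and over all groups 3 of 31 such pairs exceeded 0.1. Between groups of 2 arrays these values repeat by construction. They show little sign that replicate numbers pair the arrays, but cannot exclude it. The fit was tested on simulated data for estradiol against control at 24 h (15514 probe sets). Of 100 probe sets with a 2-fold change 35% were recovered, and 77% of 100 with a 4-fold change. Of 116 calls 3.45% were false. The simulated noise was independent between probe sets and arrays, with no difference in RNA quality or scaling between groups. These rates may therefore not hold for the real arrays, whose actin ratios differ between groups. Alternatives covered scaling, pseudocount, filter, trend, the actin 3'/5' ratio as covariate, a replicate block, the arrays fitted and leaving out each array.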

Additional observations from a re-analysis of the deposited data

Results flagged for a closer look

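The effect of estradiol differed between 24 h and 12 h, by the direct test of that difference in limma, in 12 probe sets. In 8 the change was lower at 24 h than at 12 h. The log2 difference was -4.26 for 267364_at, -3.11 for 259990_s_at, -2.32 for AT1G11210 and -2.31 for AT4G33980. It was -2.23 for 261613_at, -1.72 for 263548_at, -1.53 for 257985_at and -1.51 for 252475_s_at. In the other 4 the change was higher at 24 h, by 1.90 for 251962_at, 2.93 for 250207_at, 3.19 for 267002_s_at and 4.46 for 261569_at. The adjusted p-values ranged from 0.00033 to 0.042. Over 21 alternatives the call was lost in 17 for 252475_s_at, in 15 for 267002_s_at, in 13 for 251962_at and in 8 for 261613_at, and in none for 267364_at, 261569_at and 263548_at.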

How the results depend on the processing

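The count of probe sets called for estradiol against control at 24 h, 595 as reported, ranged from 450 to 889 over the other settings of scaling, pseudocount, filter, trend, block and arrays fitted. It moved to 939 without both 12 h arrays that stand apart (control replicate 3 and estradiol replicate 1) and to 197 with the actin 3'/5' ratio as covariate. Leaving out 1 array gave 198 to 400. With the replicate number as a block it was 498, though little sign was seen that the numbers pair the arrays. The split of higher and lower was 422 and 236 after quantile normalization and 472 and 155 after median centring. For the effect at 24 h against 12 h (12 as reported), the count was 19 without both arrays that stand apart, 11 with the replicate block and 3 to 20 without 1 array; it was 20 without estradiol 12 h replicate 1, 3 and 5 without control 24 h replicates 1 and 2, and 6 without estradiol 24 h replicate 2. For estradiol against trans-zeatin at 24 h (7 as reported), it was 4 after quantile normalization, 3 with a pseudocount of 32, 2 without the filter, 18 without both arrays that stand apart, 2 with the actin ratio, 2 with the replicate block, 21 when only the arrays compared were fitted, and 2 to 5 without 1 array, with 2 in each case without estradiol replicate 2 or either trans-zeatin replicate. Of 90 called genes and probe sets named, 42 were called under every alternative run for them, and none of the 90 changed direction. The cause of these shifts was not tested. In the simulated data, with 2 arrays in each of the compared groups, 35% of the 2-fold changes were recovered. Only 116 probe sets were called there, against 595 in the real arrays, so that rate may not hold for these.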
